A study of Mus musculus with 6 samples.

Results

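The genes described here are 9 targets of TGF-β that encode secreted proteins of the fibrotic matrix, namely Ctgf, Cyr61, Fn1, Thbs1, Fbn1, Lox, Postn, Tgfbi and Sparc. They were chosen by name, with earlier results of these data known, out of 22380 protein-coding genes of GENCODE vM1 on mm9. A peak was given to a gene where its summit lay in the gene or within 10 kb either side, and overlapping peaks of the 6 samples were joined into regions. This gave 299 peaks in 84 regions for the 9 genes, out of 170444 regions in the whole series.

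The samples were MeDIP-seq libraries from mouse primary mesangial cells, the contractile and matrix-producing cells of the glomerulus. The control group was 3 samples, and the TGF-β1 group was 3 samples exposed to the cytokine TGF-β1 at 10 ng/ml over 72 h. The labels list for all 6 samples a medium with 25.5 mM glucose and 20% foetal bovine serum and cells of passages 3 to 6, so the controls were grown in high glucose too. No allele or strain was given, and the labels do not say whether the samples of a group came from separate cultures, so each p-value measures only the spread between these samples. The libraries held 9407103 to 11494356 reads in the controls and 12634300 to 13291419 reads in the TGF-β1 samples, and every TGF-β1 sample was deeper than every control sample. Depth and treatment therefore cannot be told apart in numbers of peaks. Immunoprecipitated DNA holds no expression of marker genes, so the labelled cell type was not checked.

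TGF-β1 binds its receptor complex at the cell surface and signals through SMAD proteins, which enter the nucleus and bind target genes together with other factors. In the kidney this pathway is known as a main driver of glomerular matrix build-up, and the 9 genes are among its classical outputs. In MeDIP-seq an antibody to 5-methylcytosine pulls down sheared DNA, and the reads pile up where methylated CpG sites are dense. A region without a peak can hold unmethylated CpG sites or too few CpG sites to be captured, and the peak lists do not separate these cases. The pileup used below is the number of extended reads over a peak summit, without correction for depth.

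The start sites of the 9 genes differed widely in CpG content, which sets what MeDIP can show there. In the 300 bp from 250 bp upstream to 50 bp downstream of the start site of the transcript with the longest coding sequence, Fn1 held 27 CpG sites, Tgfbi 23, Cyr61 20, Thbs1 17 and Ctgf 11, against a median of 12 over 22372 protein-coding genes. Lox held 6, Postn 4, Sparc 4 and Fbn1 3. A further annotated start site held more at 2 of these genes, with 15 at Lox (Lox-201, position 52689245) and 17 at Fbn1 (Fbn1-001). The letters CAGAC, the SMAD-binding element, were present on either strand in 7 of the 9 windows, Thbs1 and Postn being the exceptions, and in 48.2% of all 22372 windows. These counts describe the letters of the genome only. The 250 bases before the start sites of Fn1 and Cyr61, which are rich in CpG and had no promoter peak in any sample, are shown with those of Postn, which is poor in CpG. They are from mm9, 5′ to 3′ on the strand of the gene, with each CpG in capitals. They lie at chr1:71699746-71699995 (minus strand) with 24 CpG sites for Fn1, chr3:145312950-145313199 (minus strand) with 15 for Cyr61 and chr3:54164815-54165064 (plus strand) with 4 for Postn.
Fn1 upstream: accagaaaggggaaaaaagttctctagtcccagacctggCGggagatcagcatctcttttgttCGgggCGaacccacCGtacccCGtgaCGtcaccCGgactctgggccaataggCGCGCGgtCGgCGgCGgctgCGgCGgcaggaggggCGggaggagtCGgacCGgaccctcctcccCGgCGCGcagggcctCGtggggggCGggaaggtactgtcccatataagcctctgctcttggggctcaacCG
Cyr61 upstream: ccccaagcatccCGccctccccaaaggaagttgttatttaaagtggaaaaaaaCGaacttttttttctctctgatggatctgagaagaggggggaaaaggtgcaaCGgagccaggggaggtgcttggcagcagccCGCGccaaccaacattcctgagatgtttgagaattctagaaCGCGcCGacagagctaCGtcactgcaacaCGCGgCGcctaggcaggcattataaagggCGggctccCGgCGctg
Postn upstream: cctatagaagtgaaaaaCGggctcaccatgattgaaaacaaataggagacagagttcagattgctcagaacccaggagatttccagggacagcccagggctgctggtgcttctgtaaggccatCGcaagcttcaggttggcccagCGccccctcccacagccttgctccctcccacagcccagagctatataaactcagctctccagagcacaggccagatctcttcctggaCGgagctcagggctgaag

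The second set of sequences is taken from regions that had a peak in all 6 samples, each as 250 bases around the highest summit. They are printed in the same way so that the letters under the strongest signal inside a gene, or beside it for Ctgf, can be compared with the start sites. Each stretch is named by the intron or exon that holds its summit, and its 250 bases can run into the neighbouring element. The first part of the Fn1 stretch is coding sequence. The Fn1 stretch is chr1:71658892-71659141 (minus strand), with its summit in intron 26 and 10 CpG sites. That of Fbn1 is chr2:125160989-125161238 (minus strand) at exon 44, with 10. For Tgfbi it is chr13:56720399-56720648 (plus strand) at intron 2, with 9. For Postn it is chr3:54180763-54181012 (plus strand) at exon 14, with 7. For Ctgf it is chr10:24320319-24320568 (plus strand) downstream of the gene, with 7.
Fn1 intron 26: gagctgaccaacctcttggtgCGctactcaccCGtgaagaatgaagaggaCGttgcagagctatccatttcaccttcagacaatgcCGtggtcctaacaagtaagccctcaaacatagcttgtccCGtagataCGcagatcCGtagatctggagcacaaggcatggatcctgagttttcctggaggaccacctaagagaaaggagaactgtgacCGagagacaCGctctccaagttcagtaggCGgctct
Fbn1 exon 44: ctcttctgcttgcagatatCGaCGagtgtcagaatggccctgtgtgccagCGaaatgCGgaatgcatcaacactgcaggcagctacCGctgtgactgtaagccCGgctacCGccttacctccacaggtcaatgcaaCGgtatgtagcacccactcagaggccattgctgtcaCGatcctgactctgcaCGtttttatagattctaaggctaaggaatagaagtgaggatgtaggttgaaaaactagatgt
Tgfbi intron 2: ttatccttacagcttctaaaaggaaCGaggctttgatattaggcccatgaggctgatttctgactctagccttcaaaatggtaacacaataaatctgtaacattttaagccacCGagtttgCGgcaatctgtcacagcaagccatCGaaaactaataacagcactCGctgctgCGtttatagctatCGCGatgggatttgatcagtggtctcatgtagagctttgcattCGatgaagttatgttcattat
Postn exon 14: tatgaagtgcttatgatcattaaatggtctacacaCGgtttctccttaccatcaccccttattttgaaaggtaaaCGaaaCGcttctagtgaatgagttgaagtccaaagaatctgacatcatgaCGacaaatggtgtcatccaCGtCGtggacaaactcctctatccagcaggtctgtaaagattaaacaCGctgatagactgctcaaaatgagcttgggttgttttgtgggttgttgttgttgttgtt
Ctgf downstream: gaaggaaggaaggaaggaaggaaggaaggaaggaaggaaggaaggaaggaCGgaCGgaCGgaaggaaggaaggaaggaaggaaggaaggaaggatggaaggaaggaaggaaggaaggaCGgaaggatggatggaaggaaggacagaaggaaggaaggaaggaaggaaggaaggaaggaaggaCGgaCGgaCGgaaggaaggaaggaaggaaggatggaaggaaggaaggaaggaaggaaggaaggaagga

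The Ctgf sequence differs from the others in being a simple repeat. The letters GGAA, or TTCC on the other strand, occurred 48 times in its 250 bases and covered 76.8% of them, against 0 to 2 times in the sequences of Fn1, Fbn1, Tgfbi and Postn. Its CpG sites are the points where the repeat reads CGGA in place of AGGA. How reads were placed within this repeat was not tested.

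Across the 9 genes, the number of peaks did not separate the control from the TGF-β1 samples. The summed number of peaks was 43, 43 and 55 in control 1, 2 and 3 and 56, 56 and 46 in TGF-β1 1, 2 and 3. The means were 47 ± 6.93 (SD, n = 3) in the controls and 52.7 ± 5.77 (SD, n = 3) in the TGF-β1 samples, and the groups overlapped. Per 1000000 reads the order of the means turned, with 4.51 ± 0.314 peaks in the controls and 4.10 ± 0.550 in the TGF-β1 samples. Of all peaks called in a library, the 9 genes took up 0.0517% ± 0.00369 in the controls and 0.0515% ± 0.00685 in the TGF-β1 samples. The difference in numbers of peaks was therefore of the size of the spread between samples, and its direction depended on how depth was taken into account.

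For single genes, none of the 9 had more peaks in every TGF-β1 sample than in every control sample, and none had fewer. Over the 19136 protein-coding genes with a peak, 4.08% had more in every TGF-β1 sample and 0.345% had fewer. The exact two-sided permutation test, whose smallest p with 3 against 3 samples is 0.1, gave p between 0.3 and 1 for the 9 genes, and the adjusted p over all genes with a peak was 1 for each.

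**Figure D1:**
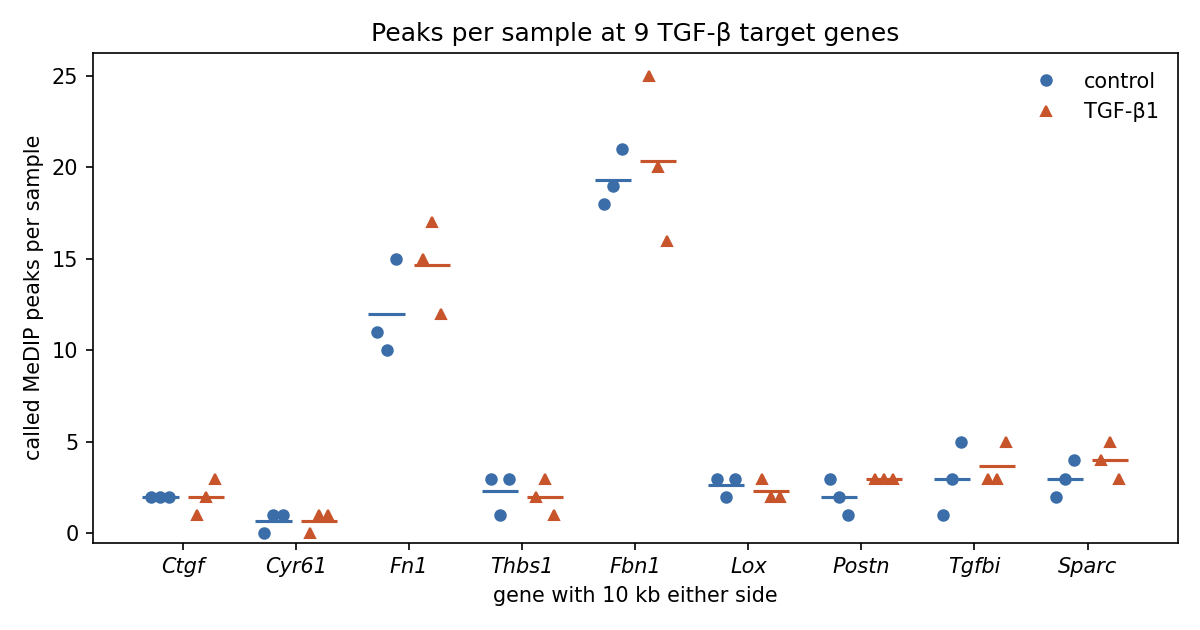
Number of called MeDIP peaks (vertical axis) in each gene with 10 kb either side, 1 point per sample, circles for the 3 control and triangles for the 3 TGF-β1 samples, with a line at each group mean. The points of the 2 groups overlap or touch at all 9 genes, and Fn1 and Fbn1 stand above the other 7.

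Fn1 and Fbn1 held 66.6% of the 299 peaks and 54 of the 84 regions, and they are the longest of the 9 genes, at 67.7 kb and 207.4 kb. Counted per 10 kb of gene and flanks, Fn1 ranked highest with a mean of 1.52 ± 0.312 peaks (SD over the 6 samples). Its lowest sample, at 1.14, lay above the highest sample of Fbn1, at 1.10, but below the highest sample of Ctgf, at 1.29. Fbn1 with 0.872 ± 0.135, Ctgf with 0.861 ± 0.272, Sparc with 0.768 ± 0.230, Lox with 0.740 ± 0.162 and Tgfbi with 0.667 ± 0.301 followed. Thbs1 with 0.615 ± 0.279, Postn with 0.501 ± 0.168 and Cyr61 with 0.290 ± 0.224 came last. From Fbn1 to Cyr61, the ranges of neighbours in this order overlapped. Genes farther apart in it could be separate, since the lowest sample of Fbn1, at 0.704, lay above the highest of Postn, at 0.601, and of Cyr61, at 0.434. The median of the 9 genes was 0.740 peaks per 10 kb, against 0.525 over all protein-coding genes. For the lists described below, it was 0.705 for the 19 family relatives and 0.606 for the 24 other TGF-β target genes.

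Inside genes lay 47 of the 54 regions of Fn1 and Fbn1, and 13 of the 30 regions of the other 7 genes, which had 17 in the flanks. The flanks were 10 kb either side of every gene, so the gene itself fills more of the window at a longer gene. It took up 67.7 of 87.7 kb at Fn1 and 207.4 of 227.4 kb at Fbn1, and a smaller share at each of the other 7. Whether the placement of regions differed beyond this was not tested. Of the 84 regions, 39 had their summit in an intron, 17 in coding sequence, 4 in an untranslated region, 11 in the upstream flank and 13 in the downstream flank. A peak was called in all 6 samples in 22 regions (26.2%) and in 1 sample in 20 regions (23.8%), close to the 24.5% and 27.3% of all regions of the series. Of the regions called in 1 group alone, 14 were called only in TGF-β1 samples and 10 only in controls. In the whole series 20.2% of regions were called only in TGF-β1 samples and 14.1% only in controls. The number of member regions with a peak throughout one group and with none in the other was 0 in each direction. Of all regions, 0.948% were called in all 3 TGF-β1 samples and no control, and 0.233% in all 3 controls and no TGF-β1 sample. By element, 6, 10 and 13 of the 17 coding regions were called in control 1, 2 and 3 and 11, 12 and 9 in TGF-β1 1, 2 and 3, and for the 39 intron regions these numbers were 21, 17 and 22 and then 27, 24 and 17. The groups overlapped for both elements.

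**Figure D2:**
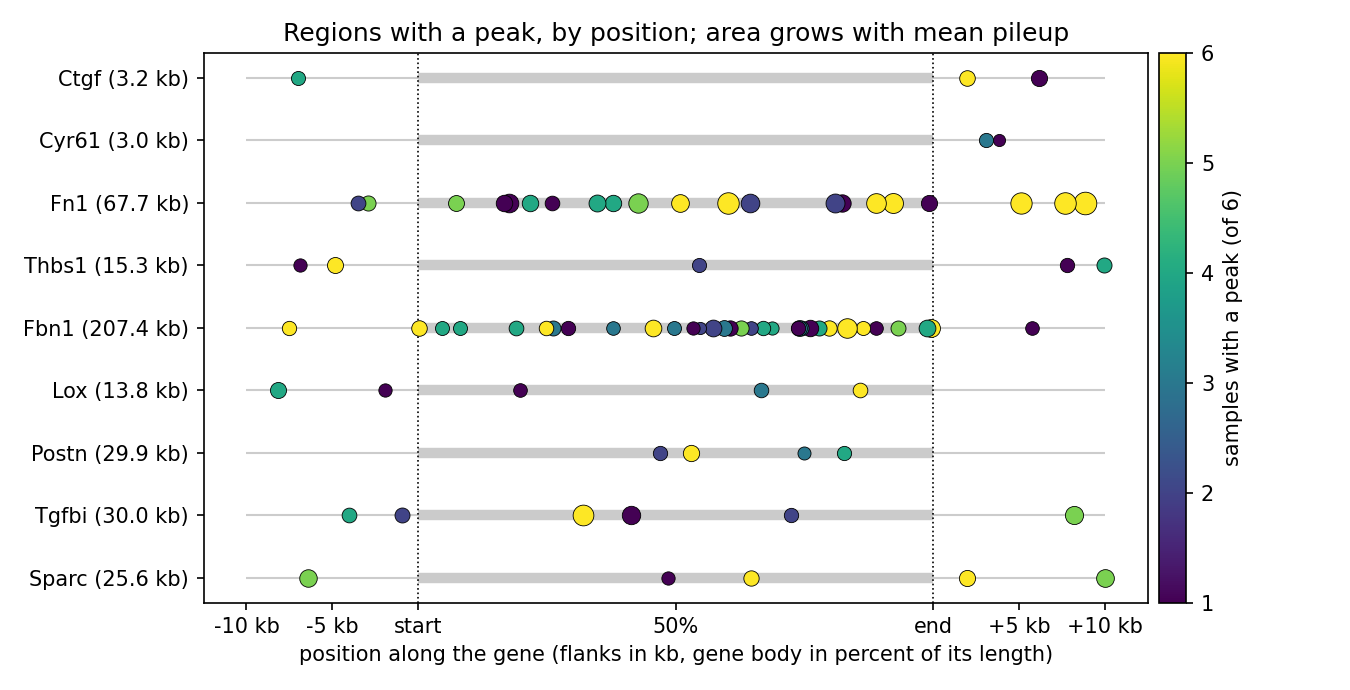
Position of the 84 regions along the 9 genes, drawn in the direction of transcription, with the flanks in kb and the gene body in percent of its length. Each circle is a region, its area grows with the mean pileup and its colour gives the number of samples with a peak, from 1 to 6. At the start line Fbn1 alone carries a region with a peak in all 6 samples, and most other circles lie within the bodies of Fn1 and Fbn1 or away from the start.

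**Figure D3:**
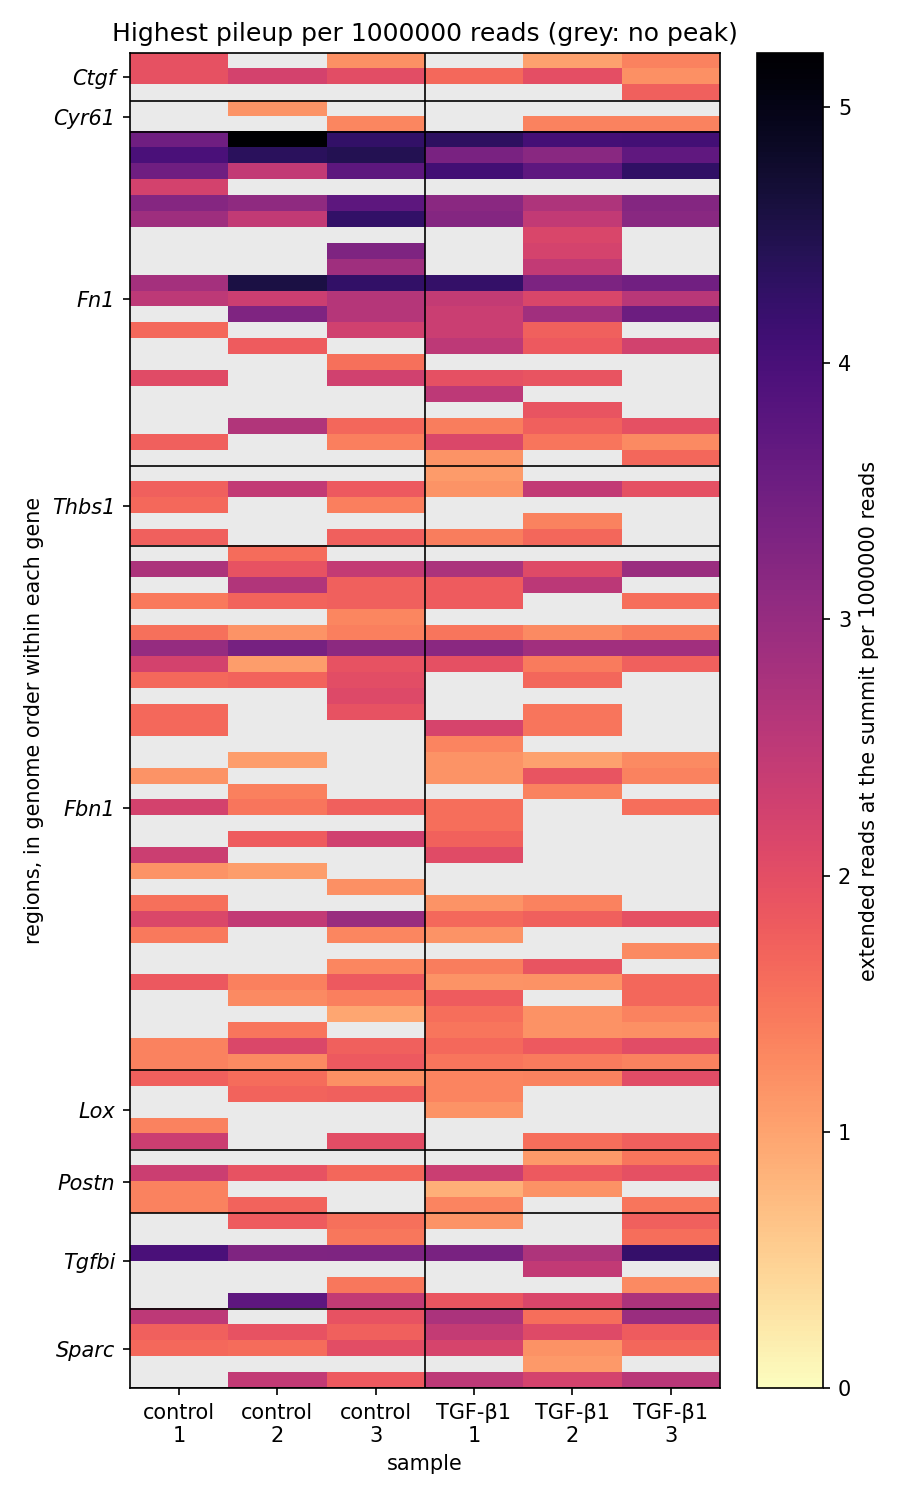
Highest pileup per 1000000 reads in each of the 84 regions (rows, grouped by gene) and the 6 samples (columns, with a line between control and TGF-β1), darker for more reads and grey where no peak was called. Rows of Fn1 and Tgfbi are among the darkest, and they are dark on both sides of the line.

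Ctgf and Cyr61 encode matricellular CCN proteins, which modulate the signals that cells receive from the matrix. Ctgf (ENSMUSG00000019997.4, chr10:24315248-24318489, plus strand) had 2, 2 and 2 peaks in control 1, 2 and 3 and 1, 2 and 3 in TGF-β1 1, 2 and 3. All of them lay outside the gene, and no sample had a promoter peak. The repeat downstream of the gene, chr10:24320213-24321149, was the one region called in all 6 samples, with pileups of 20, 21 and 23 in the controls and 21, 25 and 16 in the TGF-β1 samples. Its log2 fold change was -0.29 ± 0.22 (SE, limma, adjusted p = 0.999), with overlapping groups. Upstream, the region chr10:24308017-24308488 was called in control 1 and 3 with pileups of 20 and 14 and in TGF-β1 2 and 3 with 13 and 18. Cyr61 (ENSMUSG00000028195.3, chr3:145309935-145312949, minus strand) had 0, 1 and 1 peaks in the controls and 0, 1 and 1 in the TGF-β1 samples, the same set of numbers in each group. Both of its regions lay in the downstream flank, and no region of Cyr61 was called in more than 3 samples. The 20 CpG sites at its start site thus coincided with no peak in 2 kb upstream to 500 bp downstream, in any of the 6 libraries.

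Fn1 (ENSMUSG00000026193.8, chr1:71632094-71699774, minus strand) encodes fibronectin, the glycoprotein that links cells to collagen and is laid down early in fibrosis. It had 11, 10 and 15 peaks in control 1, 2 and 3 and 15, 17 and 12 in TGF-β1 1, 2 and 3, means of 12 ± 2.65 and 14.7 ± 2.52 (SD, n = 3, exact permutation p = 0.3). The TGF-β1 mean was higher in peaks as called, while per 1000000 reads the means were 1.14 in each group. No peak of Fn1 lay in a promoter. By pileup, the signal was instead strong along the 3′ part of the gene and beyond it. Fold enrichment, the ratio of pileup to local background, was 5.77 to 8.08 over the 6 samples at the strongest of these regions. That was below the 10.4 to 11.9 at the exon 44 region of Fbn1. In the downstream flank, chr1:71623042-71623470 had the highest mean pileup of all 84 regions, with 36, 49 and 49 in the controls and 55, 51 and 54 in the TGF-β1 samples. These pileups did not overlap, but per 1000000 reads control 2 (5.21) lay above every TGF-β1 sample (4.04 to 4.31). This region and the neighbouring chr1:71624212-71624668, with 41, 41 and 51 and then 43, 40 and 49, also overlapped Atic, the adjacent gene, so they cannot be given to Fn1 alone.

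Another downstream region of Fn1, chr1:71626822-71627356, was the only one of the 22 member regions tested that passed an unadjusted p below 0.05. Its pileups were 36, 23 and 43 in control 1, 2 and 3 and 52, 47 and 57 in TGF-β1 1, 2 and 3. These values did not overlap before depth was taken into account. With pileup scaled to reads the groups overlapped, since control 3 lay above TGF-β1 2 (3.74 against 3.72). The log2 fold change was 0.43 ± 0.19 (SE, limma, unadjusted p = 0.0264, adjusted p = 0.999). It lay 72.8 kb from the start site of Fn1, past the 3′ end of the gene. Among all 41744 regions with a peak in every sample, 1.96% passed that unadjusted p with a higher and 2.22% with a lower value in TGF-β1, so 1 of 22 is near this background. After adjustment 0% of the 41744 regions passed. The call was lost in 6 settings, in which the log2 fold change stayed positive. It was 0.34 scaled to reads, 0.41 with regions called in at least 3 samples, 0.37 when fold enrichment replaced pileup, 0.25 without control 2, 0.40 without TGF-β1 1 and 0.39 without TGF-β1 3. When scaled to reads, the member region with an unadjusted p below 0.05 was instead in intron 5 of Fbn1, and with at least 3 samples there were 2, in exon 14 of Fn1 and intron 1 of Fbn1.

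Within Fn1, the regions in exon 43, intron 42, intron 26 and intron 22 had a peak in all 6 samples. The strongest of these was intron 26, chr1:71658766-71659207, printed above, with pileups of 29, 43 and 49 in the controls and 54, 42 and 46 in the TGF-β1 samples and a log2 fold change of 0.03 ± 0.18 (SE, limma, adjusted p = 0.999). The other regions of the Fn1 coding sequence were called in some samples only. The regions in exon 39, chr1:71644844-71645198, and exon 28, chr1:71655975-71656385, were called in control 3 with 38 and 33 and in TGF-β1 2 with 28 and 31, and in no other library. Of the 8 coding regions, 2, 3 and 5 were called in control 1, 2 and 3 and 5, 7 and 3 in TGF-β1 1, 2 and 3. The groups overlapped. The coding region of exon 14, chr1:71676067-71676488, was called in control 2 with 17 and in TGF-β1 1, 2 and 3 with 32, 23 and 30. Both upstream regions, at -2.95 kb and -3.55 kb relative to the start site, overlapped another gene, Apol7d.

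Thbs1 (ENSMUSG00000040152.8, chr2:117937612-117952869, plus strand) encodes thrombospondin 1, a glycoprotein known to release TGF-β from its latent complex. It had 3, 1 and 3 peaks in the controls and 2, 3 and 1 in the TGF-β1 samples (exact permutation p = 1). The region called in all 6 samples lay at -4.86 kb relative to the start site, chr2:117932593-117932978, outside the promoter. Its pileups were 18, 23 and 21 in the controls and 15, 31 and 26 in the TGF-β1 samples, with a log2 fold change of -0.06 ± 0.24 (SE, limma, adjusted p = 0.999), and the TGF-β1 values spanned the control values. An intron 13 region, chr2:117945823-117946109, was called in control 1 and 3 alone, with 17 and 16. The last region of the downstream window, chr2:117962720-117963059, had 3 peak summits within 10 kb of the gene and 1 just outside.

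Fbn1 (ENSMUSG00000027204.7, chr2:125126330-125333729, minus strand) encodes fibrillin 1, the backbone of the microfibrils that also store latent TGF-β. It had 18, 19 and 21 peaks in control 1, 2 and 3 and 25, 20 and 16 in TGF-β1 1, 2 and 3, means of 19.3 ± 1.53 and 20.3 ± 4.51 (SD, n = 3, exact permutation p = 0.8). The highest and the lowest counts were both TGF-β1 samples, and the lowest, TGF-β1 3, came from the deepest library. Its 33 regions comprised 22 in introns and 7 in coding sequence, and 8 of the 33 were called in all 6 samples. The strongest was at exon 44, chr2:125160895-125161430, with pileups of 31, 32 and 36 in the controls and 40, 36 and 38 in the TGF-β1 samples. Its log2 fold change after centring on the median of each sample was -0.02 ± 0.18 (SE, limma, adjusted p = 0.999). The raw pileups were higher in the deeper TGF-β1 libraries, while per 1000000 reads the means were 3.18 in the controls and 2.95 in the TGF-β1 samples.

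Fbn1 was the only one of the 9 genes with a peak in all 6 samples at its outermost annotated start site. The region chr2:125333080-125333770 had its summit 0.189 kb downstream of that site, in exon 1 of transcript Fbn1-003, and overlapped Gm9913, a neighbouring gene model. Pileups were 14, 20 and 20 in the controls and 21, 23 and 27 in the TGF-β1 samples. These values did not overlap before depth was taken into account, and the log2 fold change was 0.18 ± 0.22 (SE, limma, adjusted p = 0.999). The start site under this region had 3 CpG sites in 300 bp. The other annotated start, that of Fbn1-001 at position 125332121, had 17 CpG sites in 300 bp, and it lay downstream of the region, with no peak over it in any sample. Around its summit the region itself held 9 CpG sites in 300 bp, against a median of 7 over all regions of the series. The methylated signal was therefore called at the start whose own window held 3 CpG sites, and not at the one with 17. The sequence under the summit was not poor in CpG.

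Lox (ENSMUSG00000024529.6, chr18:52675723-52689521, minus strand) encodes lysyl oxidase, which cross-links collagen and elastin. It had 3, 2 and 3 peaks in the controls and 3, 2 and 2 in the TGF-β1 samples (exact permutation p = 1). The region in all 6 samples was in the 3′ untranslated region, chr18:52677423-52677837, with pileups of 18, 15 and 14 in the controls and 17, 17 and 27 in the TGF-β1 samples and a log2 fold change of 0.13 ± 0.22 (SE, limma, adjusted p = 0.999). TGF-β1 3 was the high sample, and the others lay together. The promoter region, at -1.96 kb relative to the start site, chr18:52691294-52691592, was called in control 1 alone, with a pileup of 14.

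Postn and Tgfbi encode periostin and TGF-β-induced protein, a pair of related adhesive proteins built of fasciclin domains. Postn (ENSMUSG00000027750.9, chr3:54165031-54194961, plus strand) had 3, 2 and 1 peaks in the controls and 3, 3 and 3 in the TGF-β1 samples (exact permutation p = 0.4), and control 1 had as many as each TGF-β1 sample. The region at exon 14, chr3:54180700-54181114, was called in all 6 samples, with pileups of 24, 18 and 19 in the controls and 30, 23 and 26 in the TGF-β1 samples. The log2 fold change was 0.15 ± 0.22 (SE, limma, adjusted p = 0.999), and control 1 lay within the range of the TGF-β1 samples. It counts as a promoter peak through the start of a short internal transcript, Postn-005, at position 54181482, and lies 15.8 kb from the start of the long transcripts, where no sample had a peak.

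Tgfbi (ENSMUSG00000035493.8, chr13:56710920-56740923, plus strand) had 1, 3 and 5 peaks in the controls and 3, 3 and 5 in the TGF-β1 samples (exact permutation p = 1). Its intron 2 region, chr13:56720269-56720755, had the highest mean pileup among the 7 genes other than Fn1 and Fbn1. The pileups were 41, 31 and 38 in the controls and 43, 34 and 56 in the TGF-β1 samples. The log2 fold change was 0.03 ± 0.19 (SE, limma, adjusted p = 0.999), with overlapping groups. Its promoter region, chr13:56709777-56710169, at -1.01 kb relative to the start site, was called in control 3 with 17 and in TGF-β1 3 with 21, 1 sample of each group. The coding region of exon 10, chr13:56732474-56732799, was called in the same pair of samples, with 17 in each. The start site itself, with 23 CpG sites in 300 bp, had no peak over it.

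Sparc (ENSMUSG00000018593.6, chr11:55208002-55233582, minus strand) encodes osteonectin, a collagen-binding matricellular protein. It had 2, 3 and 4 peaks in the controls and 4, 5 and 3 in the TGF-β1 samples (exact permutation p = 0.5). The downstream region chr11:55205663-55206230 had pileups of 18, 18 and 20 in control 1, 2 and 3 and 31, 26 and 24 in TGF-β1 1, 2 and 3, which did not overlap as deposited. After centring, the log2 fold change was 0.30 ± 0.21 (SE, limma, unadjusted p = 0.164, adjusted p = 0.999). The other region in all 6 samples, in intron 5 at chr11:55216851-55217336, had overlapping values of 17, 15 and 23 and then 28, 15 and 22. No sample had a promoter peak, and the start site held 4 CpG sites in 300 bp. The outermost downstream region, chr11:55197782-55198231, straddled the edge of the window, with 3 peak summits inside it and 2 outside.

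**Figure D4:**
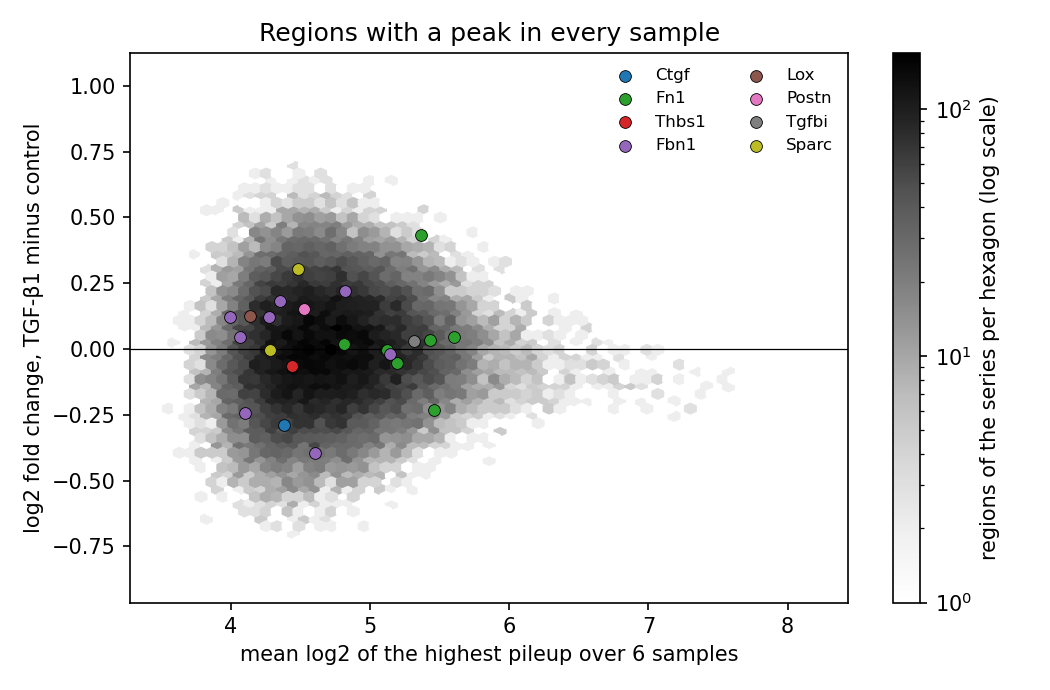
Log2 fold change of TGF-β1 against control (vertical axis) by mean log2 of the highest pileup over the 6 samples (horizontal axis) for the 41744 regions with a peak in every sample (grey hexagons, darker for more regions), with the 22 member regions as coloured points. Cyr61 has no point because no region of it was called in every sample. The members lie within the grey cloud, 13 above and 9 below 0, and the highest point is the Fn1 downstream region.

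Over the 22 regions tested, 13 had a positive and 9 a negative log2 fold change, with a median of 0.03, against a median of -0.0047 over all 41744 regions. The median standard error was 0.21. Scaling to reads instead of centring moved each member log2 fold change by the same -0.091 and the median of all regions to -0.096, which left 8 member regions positive and 14 negative. The member median was 0.038 above that of all regions under either scaling.

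Promoter peaks, counted from 2 kb upstream to 500 bp downstream of any protein-coding start site, numbered 3, 2 and 3 over the 9 genes in the controls and 2, 2 and 3 in the TGF-β1 samples. The means were 2.67 ± 0.577 and 2.33 ± 0.577 (SD, n = 3), and the groups overlapped. Of the 9 genes, 4 had a promoter peak in at least 1 sample and 2, Fbn1 and Postn, in all 6. Over all protein-coding genes, 25.8% had one in at least 1 sample and 6.93% in all 6. Ctgf, Cyr61, Fn1, Thbs1 and Sparc had none.

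The CpG content of the member regions was like that of the series and lower than that of the CpG-rich start sites. In 300 bp around the summit, the 84 regions held 3 to 16 CpG sites with a median of 8, against 7 over all regions of the series. Where all 6 samples had a peak, the median was 9, both among the members and in the whole series, and where 1 sample had a peak the medians were 7 and 6. The 17 regions in coding sequence had a median of 10 and the 11 in the upstream flanks a median of 5. No region held as many CpG sites as the main start sites of Fn1, Tgfbi, Cyr61 or Thbs1.

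**Figure D5:**
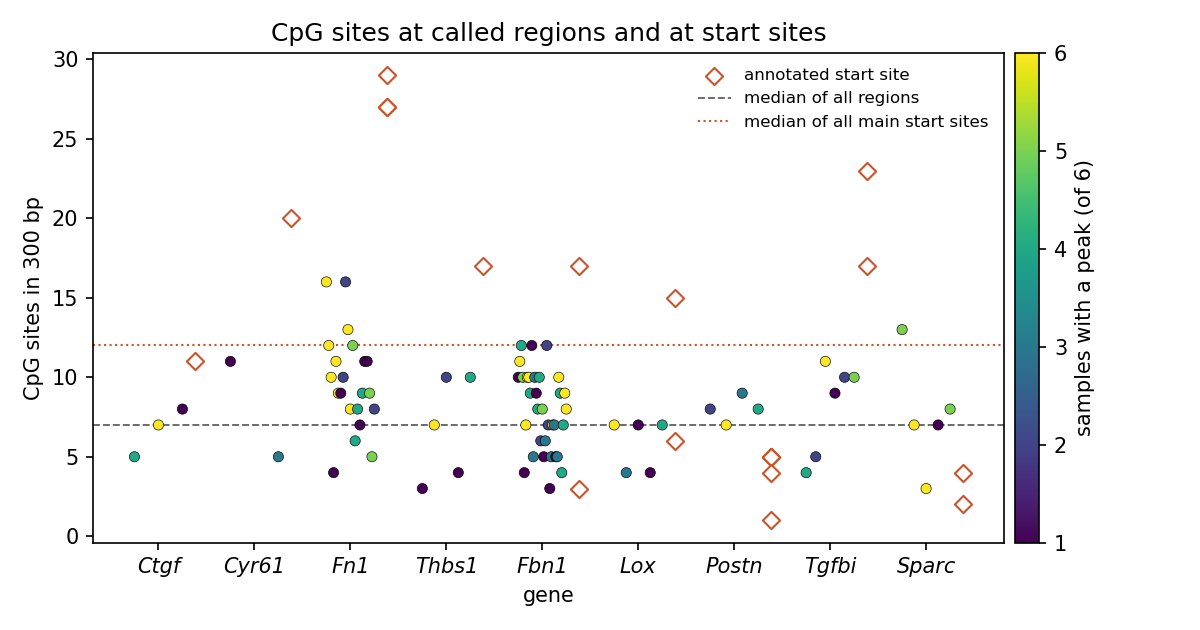
CpG sites in 300 bp (vertical axis) for each of the 84 regions, centred on its summit (points, coloured by the number of samples with a peak), and for each annotated start site (open diamonds) of the 9 genes, with the medians of all regions (dashed) and of all main start sites (dotted). The start sites of Ctgf, Fn1, Cyr61, Thbs1 and Tgfbi lie above every called region of the same gene, and those of Postn lie below.

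Other genes of the pathway were taken from a list of 24 further TGF-β target genes, which holds collagens and other matrix genes, contractile genes such as Acta2 and Tagln, and inhibitors of the signal such as Smad7 and Skil. A peak was found at 22 of the 24, the exceptions being Bgn and Timp1, against 85.5% of all protein-coding genes. Of the 24, 1 gene, Plod2, had more peaks in every TGF-β1 sample (5, 5 and 5) than in every control sample (4, 3 and 4). None of the 24 had fewer in every TGF-β1 sample. These shares stand beside the 4.08% and 0.345% of all genes given above. The median difference in peaks, TGF-β1 minus control, was 0.667 for the 9 genes, 0.667 for the 24 and 0.333 for all protein-coding genes. These differences were scaled neither to depth nor to gene length, and the median gene length was 25.6 kb, 41.0 kb and 15.4 kb in the same order. Of the 186 regions at the 24 genes, 3 were called in all TGF-β1 samples and no control, a pattern of 0.948% of all regions. At Col5a1, which encodes a fibrillar collagen chain, these were chr2:27789340-27789723 with pileups of 18, 21 and 23 and chr2:27876948-27877371 with 15, 19 and 14. At Eln, which encodes elastin, it was chr5:135210520-135210907 with 17, 17 and 21. A promoter peak was present in at least 1 sample at 7 of the 24 (29.2%) and in all 6 samples at 3 (12.5%), against 25.8% and 6.93% of all protein-coding genes.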

How the data were processed

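MeDIP-seq peak lists of 3 control and 3 TGF-β1 samples were used, grouped by the treatment and title in the labels. By the methods of the study and the headers of the files, the authors mapped reads to mm9 with BWA, kept unique reads, removed duplicates and called peaks in each sample separately with MACS2 2.1.0.20150731 at a q-value cutoff of 0.01, without a control library and with a background of 10000 bp. Pileup, as deposited, is signal: extended reads stacked at a summit, with no scaling to depth. The deposited fold enrichment is a ratio of pileup to local background. Each deposited p-value and q-value is given as −log10. Regions below the cutoff are absent from peak lists, so no read counts were tested.

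Peaks overlapping by at least 1 bp were joined (checked against bedtools 2.31.1). Genes, transcripts and sequence were those of GENCODE vM1 on NCBIM37, the assembly of mm9. Regions with a peak in all 6 samples were compared with limma 3.58.1 (R 4.3.3, lmFit followed by eBayes with trend, Benjamini-Hochberg adjustment over 41744 regions) on log2 of the highest pileup, centred on the median of each sample. Peaks per gene were compared by exact permutation over 20 assignments. The tests were checked on simulated data. The members and gene lists were chosen with earlier results of these data known. All 9 members are given with their peaks per sample, and regions are described singly where they were the strongest of a gene in all 6 samples, lay in a promoter or had an unadjusted p below 0.05. Alternatives were stricter peak thresholds, other windows, promoters, scalings and filters, joining over 200 bp, a replicate block and each sample left out. Other regions named were chosen after their values were seen. Calculations used Python 3.11.15.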

Additional observations from a re-analysis of the deposited data

How the results depend on the processing

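Numbers of peaks below are TGF-β1 minus control means. The summed difference of 5.67 peaks turned to -0.412 per 1000000 reads, and so did Fn1 (-0.00298), Fbn1 (-0.281) and Tgfbi (-0.000617). With 1 sample left out the summed difference ranged from 3.67 (without control 1 or control 2) to 9.67 (without control 3), and was 9 without TGF-β1 3. That of Fn1 ranged from 1.5 (without TGF-β1 2) to 4.17 (without control 3), and was 1.67 without control 2. The promoter difference of -0.333 became 0.667 with a promoter of 1 kb upstream to 200 bp downstream, outside which lay the Lox peak of control 1 and the summits of the Fbn1 start-site peaks of control 1 and 3. With 1 sample left out, the number of genes whose groups did not overlap ranged from 0 to 1. The share of all genes without overlap was counted for the main setting only, so this number cannot be set against a background. In the same settings the differences ranged from -0.333 (without control 1) to 1.67 for Tgfbi, from -1.33 (without TGF-β1 1) to 3.17 for Fbn1 and from -1 to 0.167 (without TGF-β1 3) for Thbs1. The number of regions with a peak throughout one group and with none in the other was 0 as reported. It rose to 2 with -log10 q of at least 5 and to 1 with fold enrichment of at least 5, all at Fbn1 and in TGF-β1. With 1 sample left out it ranged from 0 to 4, with 4 without control 2. The share of all regions with this pattern is given above for the main setting only, so these numbers cannot be set against a background. Regions with an unadjusted p below 0.05 numbered 2 of 54 when a peak in at least 3 samples was enough (4.05% of all 98681 regions in that setting), 0 with fold enrichment in place of pileup, and 0 to 1 with 1 sample left out. Log2 fold changes near 0 turned as well. The strongest Fn1 downstream region gave -0.044 scaled to reads, -0.013 with fold enrichment and -0.042 to 0.20 with 1 sample left out. The Tgfbi intron 2 region gave -0.060, -0.0019 and -0.13 to 0.18. With 1 sample left out, the Fbn1 exon 44 region ranged from -0.084 to 0.036, the Thbs1 upstream region from -0.31 to 0.21 and the Lox region from -0.076 to 0.29. Scaling to reads moved each value by the same -0.091, so positive values smaller than this shift had to turn. The cause of the other turns was not tested. No adjusted p of a member region passed 0.05 in any setting run. Same-numbered samples did not deviate together (r = -0.0464, 0.0432 and -0.130, against -0.124 to 0.168 for pairs with different numbers). The labels do not say whether they were handled together, and correlations near 0 cannot settle it. With a replicate block the count of regions at an unadjusted p below 0.05 was 1 and at an adjusted p 0, so the block changed no call. The summed difference of 5.67 cannot change under this block, since each block holds 1 sample of each group. Between same-numbered samples the summed differences were 13, 13 and -9. Libraries of 9407103 to 13291419 reads and a lowest called pileup of 8 to 10 set what could be seen.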

Other observations

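The nearest relatives of the 9 genes, a list of 19 that holds the other CCN, thrombospondin, fibrillin, lysyl oxidase, fasciclin and Sparc family genes, were measured in the same way. Each of the 19 had a peak, against 85.5% of all protein-coding genes. Loxl2, a lysyl oxidase relative, had 6, 7 and 8 peaks in the controls and 9, 10 and 9 in the TGF-β1 samples, and Stab2, a scavenger receptor with fasciclin domains, had 10, 10 and 12 and then 15, 18 and 14. These were the 2 genes of the 19 with more peaks in every TGF-β1 sample than in every control, and none had fewer, against 4.08% and 0.345% of all genes with a peak. The exact permutation p was 0.1 for each, the smallest that 3 against 3 samples can give, and the adjusted p was 1. Neither value was scaled to depth.

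Of the 188 regions at these relatives, 3 were called in all TGF-β1 samples and no control and 1 in the opposite pattern, against 0.948% and 0.233% of all regions. The Loxl2 region lay at chr14:70096655-70096978 with pileups of 18, 16 and 17, and the Stab2 region at chr10:86451630-86452396 with 17, 18 and 24. Wisp3, a CCN family gene, had both patterns a few kilobases apart. The region chr10:38867970-38868278 was called with 24, 25 and 28 in the TGF-β1 samples only, and chr10:38872878-38873219 with 26, 18 and 23 in the controls only. Its number of peaks was 3, 3 and 3 in the controls and 2, 2 and 5 in the TGF-β1 samples. A promoter peak in all 6 samples was found at 1 of the 19, Sparcl1, and in at least 1 sample at 8 (42.1%), near the 44.4% of the 9 genes.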
